A study of Mus musculus with 45 samples.

Results

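Brain RNA of mice fed a high-cholesterol diet with a Ganoderma lucidum extract called Gl-2 was compared with brain RNA of mice fed the high-cholesterol diet alone. The comparison was chosen by its array columns and rests on 6 of the 45 arrays of the series, 3 for HCD+Gl-2 and 3 for HCD, over all 22080 genes of the deposited table. Male C57BL/6 mice, 7 weeks old at the start, ate their diet until day 43 in groups of 8. Control mice received the AIN-93 diet, HCD mice AIN-93 with 0.5% cholesterol, HCD+Gl-2 mice the HCD with 1% extract of mushrooms grown on a substrate with 10 mM acetylsalicylic acid, HCD+Gl-1 mice the HCD with 1% extract of mushrooms grown without it, and HCD+Sim mice the HCD with 0.03 g of simvastatin, a cholesterol synthesis inhibitor, per 100 g. Each group gave 3 Affymetrix Mouse Gene ST arrays per tissue. According to the methods, RNA from 4 of the mice formed pool A, RNA from the remaining 4 formed pool B, and pool C mixed A with B. Only 2 of the 3 pools behind a group are therefore separate. The p-values of the main fit measure the spread between such arrays, pooled over the 15 groups of brain, liver and kidney.

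Values are log2 expression values, so a difference of 1 is a doubling, and brackets give 95% confidence intervals. Differential expression (DE) required a log2 fold change beyond 0.7 in either direction together with an adjusted p no larger than 0.05, from limma over all 45 arrays with Benjamini-Hochberg adjustment. An exact two-sided permutation test of 3 arrays against 3 cannot give a p under 0.1. The tissue label was checked against markers. Snap25, a synaptic protein of neurons, read 12.94 to 13.50 over the 15 brain arrays, against 5.86 to 6.34 in liver and 5.53 to 5.93 in kidney. Albumin (Alb) read 5.86 to 7.74 in brain against at least 13.69 in liver, and the kidney gene Umod at most 5.67 in brain against at least 12.15 in kidney. Which regions of the brain were taken is not given in the sources used here. The correlation of 2 arrays of a group was 0.9936 to 0.9967 for HCD+Gl-2 and 0.9963 to 0.9969 for HCD. The median SD of a gene was 0.106 over the 3 HCD+Gl-2 arrays, 0.0651 over HCD+Gl-2 arrays A and B, and 0.0779 over the 3 HCD arrays. The median SD over 2 arrays is smaller than that over 3 at the same spread, so part of the gap can come from the number of arrays. Although pool C is described as a mix of the other pools, array C lay between arrays A and B in 20.4% of genes for HCD+Gl-2 and in 33.8% for HCD.

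Odours are detected by sensory neurons in the nose lining, whose axons enter the olfactory bulb at the front of the brain and contact mitral and tufted cells there. The anterior pituitary, a gland attached below the hypothalamus, releases growth hormone, prolactin and other hormones. The cerebellum, at the back of the brain, holds granule and Purkinje cells with marker genes of their own. In bulk RNA, fewer cells of a type and less RNA per cell cannot be told apart.

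In brain HCD+Gl-2 against HCD, 5 genes were DE, 0.0226% of the genes tested, and all 5 were lower with Gl-2. No gene was DE in the higher direction (0%). The 5 were S100a5, Doc2g, Gh, Cdhr1 and Stoml3. S100a5 codes for a calcium-binding protein of olfactory sensory neurons, Doc2g and Cdhr1 are expressed in mitral and tufted cells of the olfactory bulb, Stoml3 codes for a stomatin-like membrane protein of olfactory cilia, and Gh codes for growth hormone. At the adjusted p alone, 8 genes passed, 2 higher and 6 lower, and at an unadjusted p under 0.05 there were 1468. For comparison, the same thresholds gave 67 DE genes in liver (0.303%) and 74 in kidney (0.335%) for Gl-2 against HCD.

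**Figure D1:**
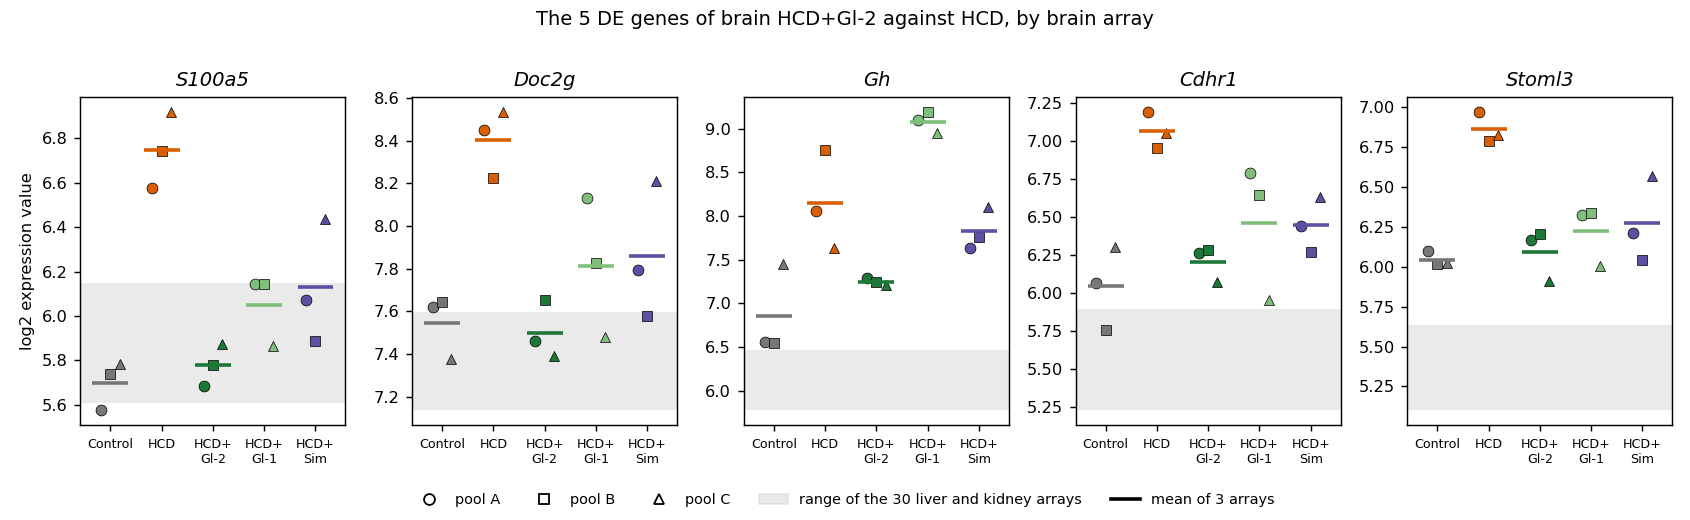
Log2 expression value of each of the 5 DE genes (y axis, scale differs between panels) in the 15 brain arrays by diet group (x axis), with pools A, B and C as different symbols, bars for the mean of 3 arrays and a grey band for the range over the 30 liver and kidney arrays. The 3 HCD+Gl-2 points lie below the 3 HCD points in every panel, and for S100a5 they lie inside the grey band.

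The stretches of 150 bases just before the gene start are shown for the 4 olfactory genes, since these are the genes that were lower together and the DNA before a start is where transcription factors bind. They come from RefSeq, build GRCm38.p6, and are written 5′ to 3′ on the gene's own strand. The table of promoters held 4 of the 5 DE genes, all but Gh. Capitals mark matches to motifs of factors known in olfactory neurons, namely CCCNNGGG, the core of the site of Olf/Ebf factors, and TAATTG, a homeodomain site. S100a5 is at chr3:90608372-90608521 on the plus strand, Doc2g at chr19:4003235-4003384 on the plus strand, Cdhr1 at chr14:37098348-37098497 on the minus strand and Stoml3 at chr3:53488557-53488706 on the plus strand.
S100a5: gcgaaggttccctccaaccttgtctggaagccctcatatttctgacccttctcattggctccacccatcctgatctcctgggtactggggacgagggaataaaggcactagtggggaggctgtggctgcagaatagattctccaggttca
Doc2g: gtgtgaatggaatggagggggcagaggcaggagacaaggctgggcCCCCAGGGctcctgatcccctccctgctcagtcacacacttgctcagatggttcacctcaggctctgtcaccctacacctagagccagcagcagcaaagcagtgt
Cdhr1: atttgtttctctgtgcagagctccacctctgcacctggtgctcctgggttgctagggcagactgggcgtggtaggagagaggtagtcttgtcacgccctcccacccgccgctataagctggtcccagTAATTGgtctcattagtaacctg
Stoml3: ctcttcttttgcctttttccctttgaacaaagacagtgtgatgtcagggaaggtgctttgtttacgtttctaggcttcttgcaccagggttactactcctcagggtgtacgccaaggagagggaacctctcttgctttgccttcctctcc

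Both strands of a window from 250 bases before to 50 bases after the start were searched. CCCNNGGG matched in Doc2g, 105 to 98 bases before the start, and in 13.7% of 32851 promoter windows of the same length. TAATTG matched in Cdhr1, 23 to 18 bases before the start, and in 8.0% of windows. The full Olf/Ebf site, which is the core with a T before it and an A after it (0.904% of windows), TAATTA (5.29%) and the TATA box letters TATAAA (13.6%) matched in none of the 4 windows. The core lies inside the full site, so these matches are not independent, and a match is a description of letters in the window.

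S100a5 had the lowest p of all genes. It read 5.69, 5.78 and 5.88 in HCD+Gl-2 arrays A, B and C and 6.58, 6.75 and 6.92 in the HCD arrays. All 3 HCD+Gl-2 values were below all 3 HCD values, with a log2 fold change of -0.97 (SE 0.11, adjusted p 1.04e-06 in limma). The 15 liver arrays read 5.78 to 6.15 and the 15 kidney arrays 5.61 to 6.07, so the HCD+Gl-2 values overlapped the readings in organs that are not part of the olfactory system. S100a5 was DE in each of the 12 alternative settings that measured it, with values from -1.05 to -0.88.

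Doc2g, a member of the double C2 domain family of vesicle-associated proteins, read 7.46, 7.65 and 7.39 with Gl-2 and 8.45, 8.23 and 8.54 on HCD. The log2 fold change was -0.90 (SE 0.13, adjusted p 0.000143 in limma), and the groups did not overlap. Liver arrays read 7.14 to 7.60 and kidney arrays 7.19 to 7.40. The HCD values of Doc2g thus lay above all readings in those organs, while 2 of the 3 HCD+Gl-2 values lay within the liver range.

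Cdhr1, a cadherin-related protein first known from photoreceptors, read 6.26, 6.29 and 6.08 with Gl-2 and 7.20, 6.96 and 7.06 on HCD. The log2 fold change was -0.86 (SE 0.15, adjusted p 0.00731 in limma). Stoml3 read 6.17, 6.21 and 5.91 with Gl-2 and 6.97, 6.78 and 6.83 on HCD, a log2 fold change of -0.77 (SE 0.11, adjusted p 0.000143). In both genes the 3 HCD+Gl-2 arrays lay below the 3 HCD arrays and above every liver array, which read at most 5.90 for Cdhr1 and at most 5.63 for Stoml3. The Cdhr1 call was lost without HCD array A and the Stoml3 call without HCD+Gl-2 array C, where its value was -0.67. In a fit of the 15 brain arrays alone S100a5 was DE (adjusted p 0.0185 in limma) and the other 4 genes were not. The adjusted p there was 0.162 for Doc2g, 0.118 for Stoml3, 0.278 for Cdhr1 and 0.646 for Gh.

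Gh read 7.29, 7.25 and 7.21 with Gl-2 and 8.06, 8.76 and 7.64 on HCD. The 3 Gl-2 arrays were close to one another and the HCD arrays spread over more than 1 log2 unit, with no overlap between the groups. The log2 fold change was -0.90 (SE 0.18, adjusted p 0.0296 in limma). Liver and kidney arrays read 5.78 to 6.46. The Gh call was kept in 4 of 13 alternative settings, and without HCD+Gl-2 array C it was lost at nearly the same value (-0.88, adjusted p 0.102).

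**Figure D2:**
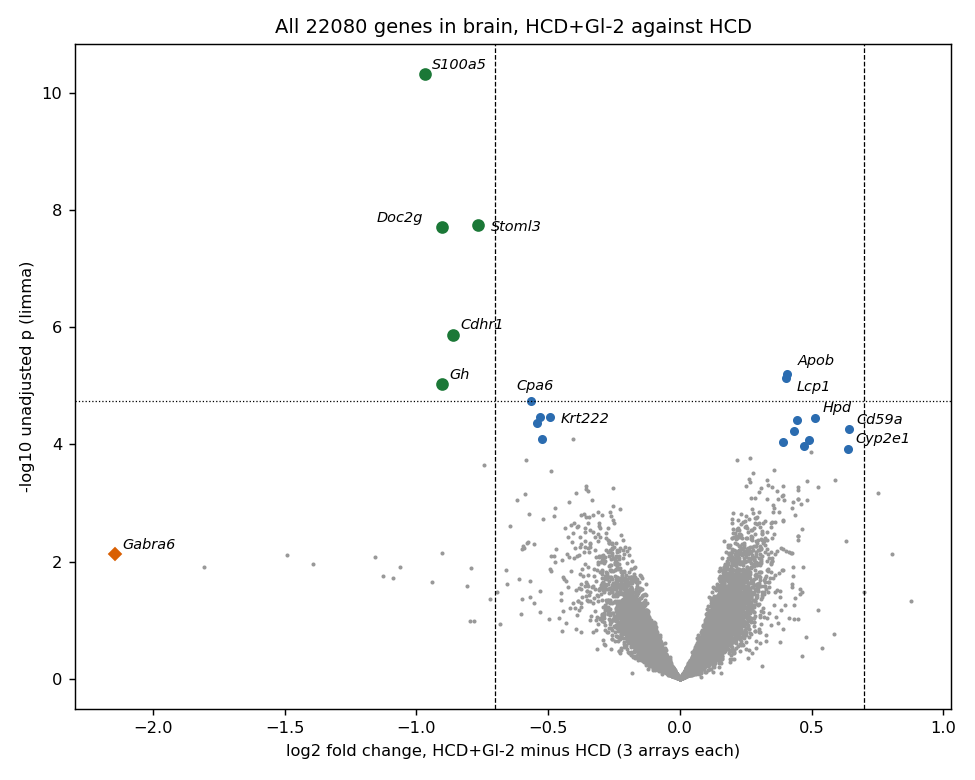
Log2 fold change of HCD+Gl-2 minus HCD in brain (x axis) against the -log10 unadjusted p of limma (y axis) for all 22080 genes, with dashed lines at -0.7 and 0.7 and a dotted line at the largest p with an adjusted p of at most 0.05. The 5 DE genes are green, the other genes named by rule are blue, and the orange diamond is Gabra6, which had the largest fold change but an adjusted p of 0.523.

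A further 3 genes passed the adjusted p with a fold change under the threshold. Cpa6, a secreted carboxypeptidase, read 4.52, 4.55 and 4.75 with Gl-2 and 5.20, 5.26 and 5.06 on HCD (log2 fold change -0.57, SE 0.12, adjusted p 0.0493 in limma). Apob, the apolipoprotein of liver and gut lipoproteins, read 5.55, 5.58 and 5.67 with Gl-2 and 5.25, 5.21 and 5.13 on HCD (log2 fold change 0.41, SE 0.08, adjusted p 0.0273). Lcp1, an actin-bundling protein of white blood cells and microglia, read 6.64, 6.95 and 6.58 with Gl-2 and 6.39, 6.30 and 6.27 on HCD (log2 fold change 0.40, SE 0.08, adjusted p 0.0273). In these 3 genes the groups did not overlap, and Apob and Lcp1 were the only genes higher with Gl-2 at the adjusted p. The brain readings of Apob were far below the 12.72 to 12.95 of liver arrays.

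Up to 10 genes were named per direction, in order of p among those whose groups did not overlap. This limit, not the data, set the numbers of further genes, 4 lower and 8 higher. The 4 lower genes had an adjusted p above 0.05. They were the 5S ribosomal RNA gene n-R5s136 (-0.53, a gene with near-identical copies whose reading is uncertain), Krt222 (-0.49), Frmd7 (-0.54) and Scgn (-0.52), the last a calcium-binding protein of olfactory bulb interneurons. Their adjusted p ran from 0.0702 for n-R5s136 and Krt222 to 0.102 for Scgn in limma. The 8 higher genes named by this rule were Hpd (0.51), Lhfpl5 (0.44), Cd59a (0.64), Pter (0.43), Mug1 (0.49), Amy1 (0.39), Dpp4 (0.47) and Cyp2e1 (0.64), with adjusted p from 0.0702 to 0.124. Hpd, Mug1 and Cyp2e1 are genes of the liver, where their lowest readings were 12.73, 13.33 and 13.23. Over all genes, the 3 HCD+Gl-2 arrays lay above the 3 HCD arrays in 9.86% and below them in 4.75%.

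The 5 DE genes were then read in the other brain groups. On the Control diet S100a5 read 5.58, 5.74 and 5.79, Doc2g 7.62, 7.65 and 7.38, and Cdhr1 6.07, 5.76 and 6.31. Stoml3 read 6.09, 6.01 and 6.02 and Gh 6.56, 6.55 and 7.46. In the 4 olfactory genes the Control arrays thus lay with the HCD+Gl-2 arrays and below the HCD arrays. HCD+Gl-2 minus Control was 0.08 [-0.13, 0.29] for S100a5, -0.05 [-0.30, 0.21] for Doc2g, 0.16 [-0.14, 0.47] for Cdhr1, 0.05 [-0.17, 0.27] for Stoml3 and 0.39 [0.04, 0.75] for Gh, and none of the 5 was DE there. HCD minus Control was 1.05, 0.86, 1.03, 0.82 and 1.29 in the same order, and all 5 were DE. This comparison shares the HCD arrays with HCD+Gl-2 against HCD, so a high or low HCD reading enters both.

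With simvastatin the means of the 4 olfactory genes lay between those of HCD+Gl-2 and HCD. S100a5 read 6.07, 5.89 and 6.44 and Stoml3 6.21, 6.04 and 6.57 in the HCD+Sim arrays. HCD+Sim minus HCD, again with the HCD arrays shared, was -0.62 for S100a5, -0.54 for Doc2g, -0.62 for Cdhr1, -0.59 for Stoml3 and -0.32 for Gh, and none of the 5 was DE.

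The extracts Gl-1 and Gl-2, which differ in whether the mushroom substrate held acetylsalicylic acid, were given at the same dose and time and can be compared without the HCD arrays. HCD+Gl-2 against HCD+Gl-1 gave 2 DE genes (0.00906%), both lower with Gl-2, and 1213 genes at an unadjusted p under 0.05. Gh was the larger, at 9.10, 9.20 and 8.95 with Gl-1 against 7.29, 7.25 and 7.21 with Gl-2. The difference was -1.83 [-2.19, -1.48] with an adjusted p of 2.98e-08 in limma. Gh was thus lower with Gl-2 than on HCD and higher with Gl-1 than on HCD, where the log2 fold change was 0.93 (adjusted p 0.031). For HCD+Gl-1 minus HCD, again with the HCD arrays shared, Gh alone of the 5 genes was DE. Yet the lowest value among the 5 was -0.696, just short of the fold change threshold of 0.7. S100a5, Doc2g, Cdhr1 and Stoml3 all had lower means with Gl-1 than on HCD. Their differences between the extracts, given below, were smaller than their differences between HCD+Gl-2 and HCD. A lower mean than on HCD was thus not particular to Gl-2 in these genes.

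Krt222, a keratin-family gene, was the other. It read 7.66, 7.89 and 8.11 with Gl-2 and 8.72, 8.61 and 8.60 with Gl-1, a difference of -0.76 [-0.97, -0.54] (adjusted p 0.000161 in limma). It read 8.31, 8.46 and 8.37 on HCD, between the extracts. The 4 olfactory genes were not DE between the extracts. Their differences, Gl-2 minus Gl-1, were -0.27 [-0.49, -0.06] for S100a5, -0.31 [-0.57, -0.05] for Doc2g, -0.26 [-0.56, 0.05] for Cdhr1 and -0.13 [-0.34, 0.09] for Stoml3. The S100a5 and Doc2g intervals, not adjusted for the number of genes, lay wholly on the side of a lower reading with Gl-2. Those of Cdhr1 and Stoml3 left room for a difference in either direction. The Gl-1 arrays were spread, with Cdhr1 at 6.79, 6.65 and 5.95.

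The olfactory bulb list held 14 genes, all measured. Of them 2 were DE, Doc2g and Cdhr1, both lower, 11 had a lower mean with Gl-2, and in 7 the 3 HCD+Gl-2 arrays lay below the 3 HCD arrays. Over all genes 0.0226% were DE and lower and 4.75% had all 3 arrays below. The members had a median of -0.19 on the log2 scale, beside 0.02 over all genes. Its mean level was 6.92, 6.89 and 6.88 in the HCD+Gl-2 arrays and 7.21, 7.17 and 7.21 in the HCD arrays, with no overlap. The counts and the level include Doc2g, Cdhr1 and Scgn, already named above for this comparison, so they are not separate from those results. The Control arrays read 6.86, 6.91 and 6.65. The HCD+Gl-1 arrays read 7.11, 6.94 and 6.82 and the HCD+Sim arrays 7.03, 6.81 and 7.09. HCD was thus the highest of the brain groups on this list, as it was for its DE members. The list median against HCD was -0.24 for HCD+Gl-1 and -0.20 for HCD+Sim, again with the HCD arrays shared. A lower list than on HCD was thus not particular to Gl-2.

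Within that list, genes of different cells had different values. Eomes, a transcription factor of mitral and tufted cells, read 5.14, 5.30 and 5.00 with Gl-2 and 6.00, 5.74 and 5.93 on HCD (-0.74, adjusted p 0.188 in limma). Tbx21, which marks the same cells, differed by 0.05, with all 15 brain arrays at or below the highest liver reading of 6.27. Th, the dopamine-synthesis enzyme of bulb interneurons and midbrain neurons, differed by -0.10, Calb2 by -0.45 and Dlx6, a factor of inhibitory neurons, by 0.13. Fabp7 (-0.22), Shisa3 (-0.27), Dlx5 (-0.16) and Sp8 (-0.14) were nearer to 0 than Doc2g and Cdhr1.

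The list for olfactory sensory neurons of the nose lining held 7 genes, of which only Stoml3 was DE. Omp, the defining marker of mature olfactory sensory neurons, read 5.70, 5.59 and 5.90 with Gl-2 and 5.99, 5.83 and 5.86 on HCD (-0.17, adjusted p 0.835 in limma). The liver arrays read 5.73 to 6.27 for Omp, so it was at the readings of an organ without these neurons in all 6 arrays. The list median was 0.08, and 4 of 7 genes had a higher mean with Gl-2. S100a5 is on none of the lists.

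The pituitary list held 13 genes, and Gh was its one DE member. Prl, the gene of prolactin, read 4.89, 4.84 and 5.26 with Gl-2 and 5.45, 6.02 and 4.97 on HCD (-0.49, adjusted p 0.523 in limma). HCD array B, the highest of the 6 for Gh, was also the highest for Prl. The gonadotropin and thyrotropin subunit genes Cga (-0.15), Lhb (0.02), Fshb (-0.05) and Tshb (0.05) and the pituitary factor Pou1f1 (-0.12) had values nearer to 0, none of them DE, and the list median was -0.05. Without HCD+Gl-2 array C, 12 of the 13 members had a lower mean, beside 8 with it, and the list median was -0.10. Over all genes, 50.8% had a higher mean without that array and 57.4% with it.

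**Figure D3:**
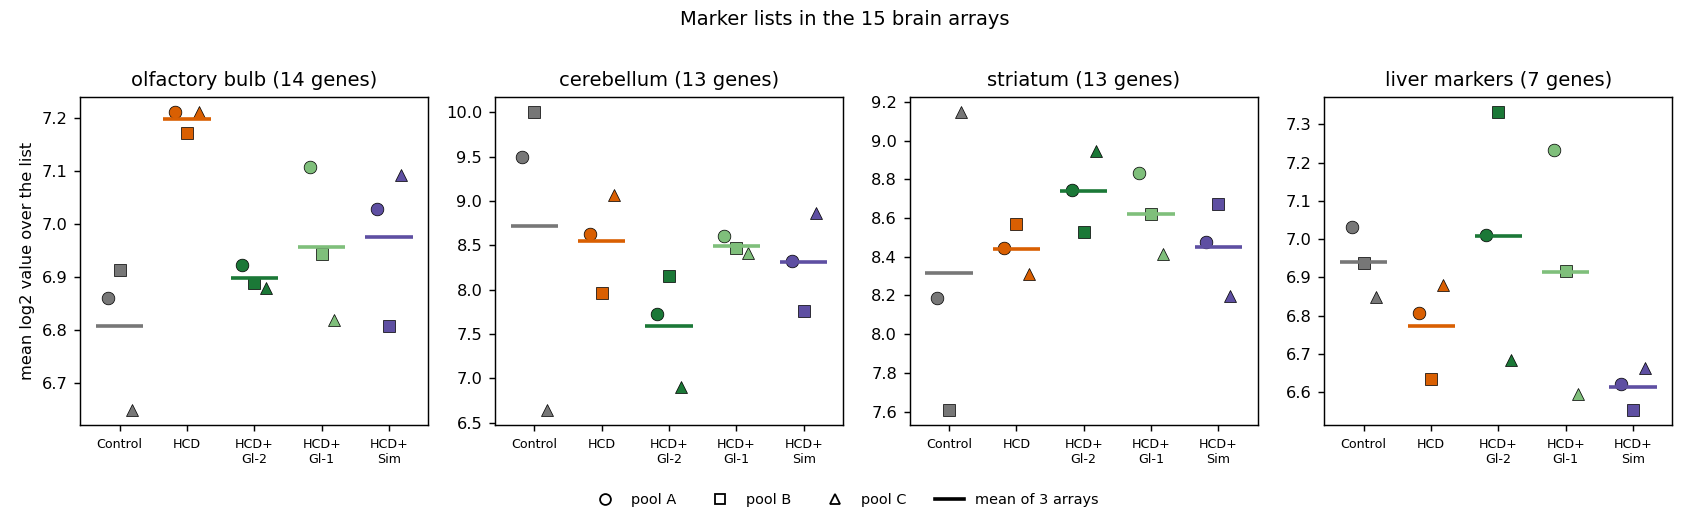
Mean log2 value over the genes of the olfactory bulb, cerebellum, striatum and liver marker lists (y axis, scale differs between panels) in the 15 brain arrays by diet group (x axis), with pools as symbols and bars for the mean of 3 arrays. The olfactory bulb list is high in all 3 HCD arrays, while the cerebellum list spreads within groups, from 6.90 to 8.16 with Gl-2 and from 6.64 to 10.01 on Control.

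The largest fold changes belonged to genes of the cerebellum and were not DE. All 13 genes of the cerebellum list had a lower mean with Gl-2, with a median of -0.81, and 0 were DE. Gabra6, a GABA receptor subunit of cerebellar granule cells, read 7.61, 8.28 and 5.24 with Gl-2 and 9.30, 8.35 and 9.91 on HCD (-2.14, SE 0.76, adjusted p 0.523 in limma). Cbln3, a cerebellin of granule cells, differed by -1.81 and Car8, a carbonic anhydrase-related protein of Purkinje cells, by -1.49. The list's mean level was 7.72, 8.16 and 6.90 with Gl-2, 8.63, 7.96 and 9.06 on HCD and 9.49, 10.01 and 6.64 on Control. The Control arrays alone thus differed by over 3 log2 units, and the HCD+Gl-2 and HCD arrays overlapped.

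In all, 24 genes passed the fold change threshold and 19 of them were not DE, 16 lower and 3 higher. Of the 19, 8 were on the cerebellum list, and their standard errors reached 0.76, while those of the 5 DE genes were 0.11 to 0.18. Without HCD+Gl-2 array C the cerebellum median was -0.55, still with 13 of 13 lower, and Gabra6 differed by -1.24. Whether differences in the share of cerebellum between pools had a part in the values of other genes was not tested.

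Genes of the striatum, the input nucleus of the basal ganglia, had higher means with Gl-2 in 13 of 13 cases, with a median of 0.31 and 0 DE. Tac1, the substance P precursor, differed by 0.52, Rxrg by 0.46, the adenosine receptor gene Adora2a by 0.44 and the dopamine receptor gene Drd1 by 0.31, with adjusted p from 0.67 to 0.792 in limma. In 5 of the 13 the HCD+Gl-2 arrays lay above the HCD arrays, as they did in 9.86% of all genes. The list of monoamine and cholinergic genes of midbrain and brainstem had 11 of 13 higher and a median of 0.24. Slc5a7, the choline transporter, differed by 0.39 (adjusted p 0.31) and the serotonin synthesis gene Tph2 by 0.38, with Tph2 at 6.98, 7.22 and 6.03 against 6.34, 5.48 and 7.27. Against these stand 57.4% of all genes with a higher mean in HCD+Gl-2, a share that was 50.8% without array C.

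The markers of the general brain cell types differed little. The medians were -0.07 for excitatory neurons, 0.02 for inhibitory neurons, 0.01 for astrocytes, 0.07 for microglia and -0.05 for the choroid plexus, with 0 DE in each list. Oligodendrocyte genes had 6 of 12 higher, and Mbp, myelin basic protein, read 9.98, 10.10 and 9.80 against 9.97, 9.86 and 9.76. Among the microglia genes 9 of 11 had a higher mean, with the complement gene C1qa at 8.41, 8.43 and 8.56 against 8.27, 8.26 and 8.24 (0.21, adjusted p 0.755 in limma). Among the choroid plexus genes Ttr, transthyretin, read 11.75, 12.35 and 11.06 against 12.36, 12.42 and 12.15 (-0.59, adjusted p 0.304).

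**Figure D4:**
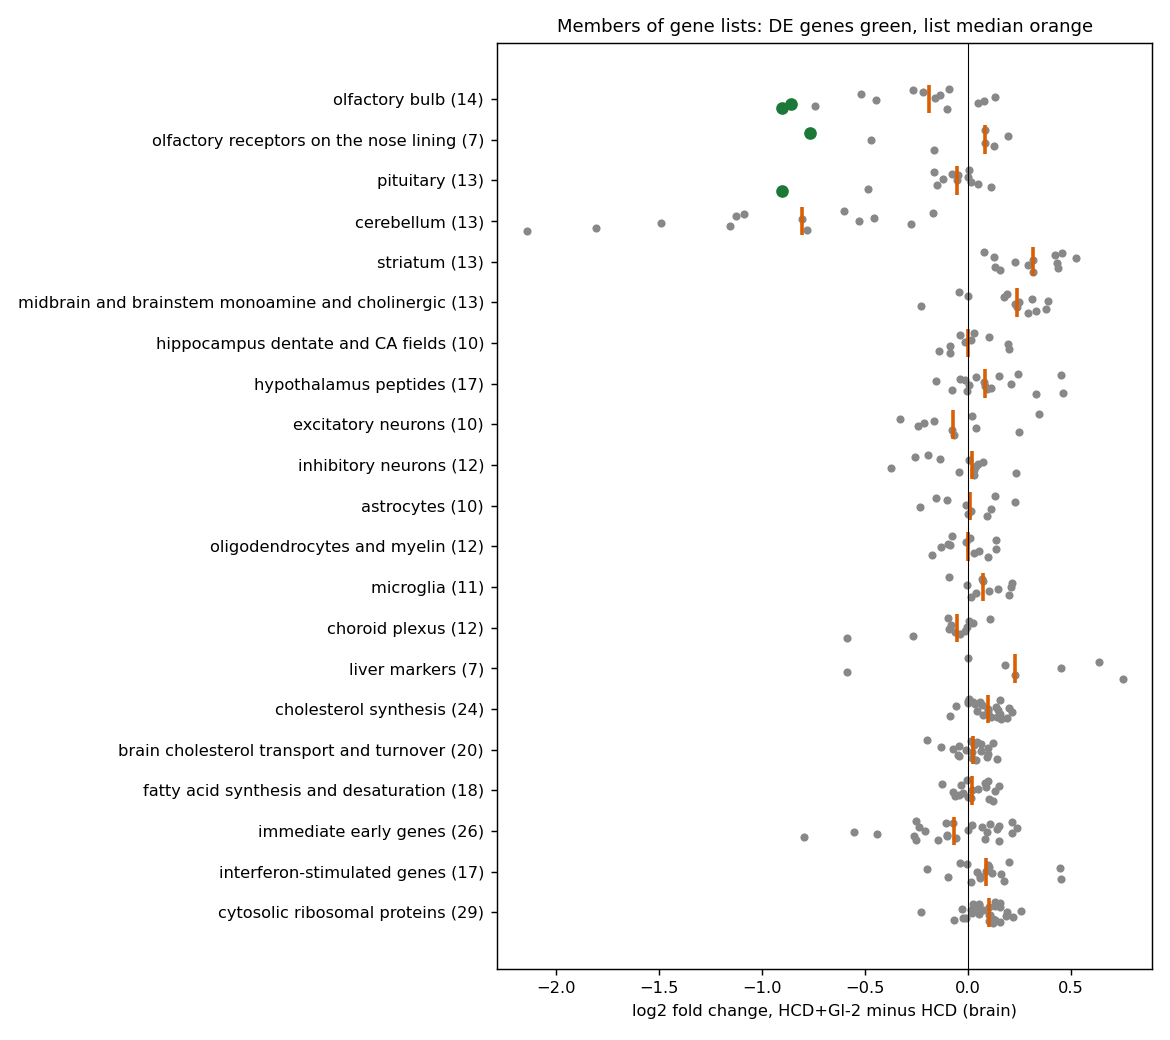
Log2 fold change of HCD+Gl-2 minus HCD in brain (x axis) for each measured member of 21 gene lists (y axis, number of members in parentheses), with DE genes in green and an orange bar at the list median. The 4 green points lie in the olfactory bulb, nose lining and pituitary lists, the cerebellum list lies wholly below 0 and the striatum list wholly above it.

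Liver genes read higher with Gl-2 in part of the pools. Alb read 7.27, 7.74 and 6.36 with Gl-2 and 6.41, 6.05 and 6.65 on HCD (0.75, adjusted p 0.297 in limma), with the groups overlapping through array C. Cyp2e1 read 5.83, 6.14 and 5.49 against 5.30, 4.91 and 5.34 and was higher in all 3 arrays. Of the 7 liver markers 5 had a higher mean, with a median of 0.23. With pools A and B only, 13 genes were DE in the higher direction, among them Alb, Cyp2e1, Mug1, 3 Serpina1 genes and 3 major urinary protein genes, families with near-identical copies whose readings are uncertain. Without HCD+Gl-2 array C alone, 5 were DE in that direction, including Alb (1.13, adjusted p 0.00228). The brain readings of Alb stayed far below those of liver, and whether liver RNA reached the brain samples was not tested.

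Cholesterol in the brain is made locally, since lipoproteins of the blood do not cross the blood-brain barrier, and it leaves mainly as a hydroxylated form made by Cyp46a1. Of 24 genes of cholesterol synthesis, 20 had a higher mean with Gl-2, in 7 the arrays lay above those of HCD, 0 were DE and the median was 0.10. Over all genes 57.4% had a higher mean, 9.86% had all 3 arrays above and the median was 0.02. Sqle, squalene epoxidase, read 7.87, 8.03 and 8.12 with Gl-2 and 7.77, 7.81 and 7.79 on HCD (0.21, adjusted p 0.828 in limma). Cyp46a1 differed by -0.01 [-0.26, 0.24] and Apoe, the main lipoprotein component made by astrocytes, by 0.04 [-0.08, 0.15]. The list of cholesterol transport and turnover had 13 of 20 higher and a median of 0.02, and that of fatty acid synthesis 10 of 18 and 0.02.

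Immediate early genes are transcribed within minutes of neuronal activity or other stimuli. Of 26, 11 had a higher mean with Gl-2 and 0 were DE, with a median of -0.07 that became 0.04 without HCD+Gl-2 array B. Egr1 read 9.92, 9.60 and 9.12 with Gl-2 and 10.39, 10.27 and 10.37 on HCD, and Nr4a1 9.30, 8.78 and 9.57 against 9.80, 9.71 and 9.80. In both the groups did not overlap, with fold changes of -0.80 (adjusted p 0.827 in limma) and -0.55 (adjusted p 0.757). Fos read 7.38, 7.24 and 7.53 against 7.13, 7.26 and 7.32 and Arc, a synaptic plasticity gene, differed by -0.44 (adjusted p 0.621).

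Among interferon-stimulated genes 13 of 17 had a higher mean with Gl-2 and 0 were DE, with a median of 0.09. Ifit3 read 6.70, 6.59 and 6.41 against 6.09, 6.11 and 6.15 (0.45, adjusted p 0.293 in limma) and Ifi44 read 6.48, 6.61 and 6.41 against 5.89, 6.22 and 6.04 (0.45, adjusted p 0.31). The groups did not overlap in these 2, while Irf7 (0.06), Usp18 (0.05) and Oasl2 (0.06) did overlap and Bst2 was lower in all 3 arrays (-0.20). Genes of prostaglandin synthesis and receptors, which include the targets of acetylsalicylic acid, had 14 of 22 higher and a median of 0.04. Ptgs1, cyclooxygenase 1, read 7.62, 7.63 and 7.55 against 7.46, 7.39 and 7.33 (0.21, adjusted p 0.515) and Ptgs2, cyclooxygenase 2, differed by 0.02 [-0.39, 0.42].

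The other pathway lists had 0 DE genes. Cytosolic ribosomal proteins had 24 of 29 higher (median 0.10), heat shock genes 12 of 15 (0.08), NRF2 antioxidant genes 13 of 18 (0.05), respiratory chain subunits 21 of 30 (0.03) and genes of inflammation and reactive glia 16 of 24 (0.06). Clock genes had 7 of 18 higher (-0.05), synaptic proteins 5 of 16 (-0.06) and glutamate and GABA receptor subunits 9 of 24 (-0.03). Some of these counts moved without HCD+Gl-2 array C: ribosomal proteins to 19 of 29, synaptic proteins to 9 of 16, receptor subunits to 14 of 24, fatty acid synthesis from 10 to 15 of 18, and choroid plexus from 3 to 9 of 12.

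The same contrast was read in liver and kidney, where it uses other arrays. None of the 5 brain genes was DE there, with values of -0.06 to 0.17 in liver and -0.08 to 0.11 in kidney. The difference of the Gl-2 effects, brain minus liver, was -0.98 for S100a5, -0.89 for Doc2g, -1.03 for Cdhr1 and -0.70 for Stoml3, all called at the same thresholds, and Gh was not called. Brain minus kidney was -1.08 for S100a5, -0.88 for Doc2g and -0.94 for Cdhr1, all called. Over all genes 61 (0.276%) were called for brain minus liver and 72 (0.326%) for brain minus kidney. With the 30 arrays of the 2 tissues alone these counts were 23 and 79.

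Immediate early genes were among the genes called for both differences. Of the 26, 11 were DE and higher in liver and 16 in kidney with Gl-2, none in brain, beside 0.208%, 0.213% and 0% of all genes. The difference itself was called in 7 for liver and 17 for kidney. Egr1 rose by 2.47 in liver and 3.97 in kidney, and its brain minus liver and brain minus kidney differences were -3.26 (adjusted p 0.013 in limma) and -4.77 (adjusted p 2.5e-05). Fos differed by -2.54 between brain and kidney (adjusted p 0.0011), while its difference from liver was not called (-1.73, adjusted p 0.062).

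Some lipid synthesis genes were called for brain minus liver. The fatty acid synthesis list had a median of -0.49 in liver with 6 of 18 DE and lower, beside 0.0951% of all genes. The brain minus liver difference was called in 5 of the 18, beside 0.276% of all genes. Me1, malic enzyme, was 9.09, 9.03 and 9.25 against 9.02, 9.03 and 8.88 in brain (0.15) and fell by 1.09 in liver, a difference of 1.24 (adjusted p 0.00045 in limma). Of the cholesterol synthesis genes 3 were called for brain minus liver, among them Nsdhl (1.21, adjusted p 0.0042) and Fdps (0.95, adjusted p 0.044). The metallothionein genes Mt1 and Mt2, which bind zinc and copper, differed by -0.01 and 0.02 in brain and rose by 1.47 and 2.11 in liver.

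**Figure D5:**
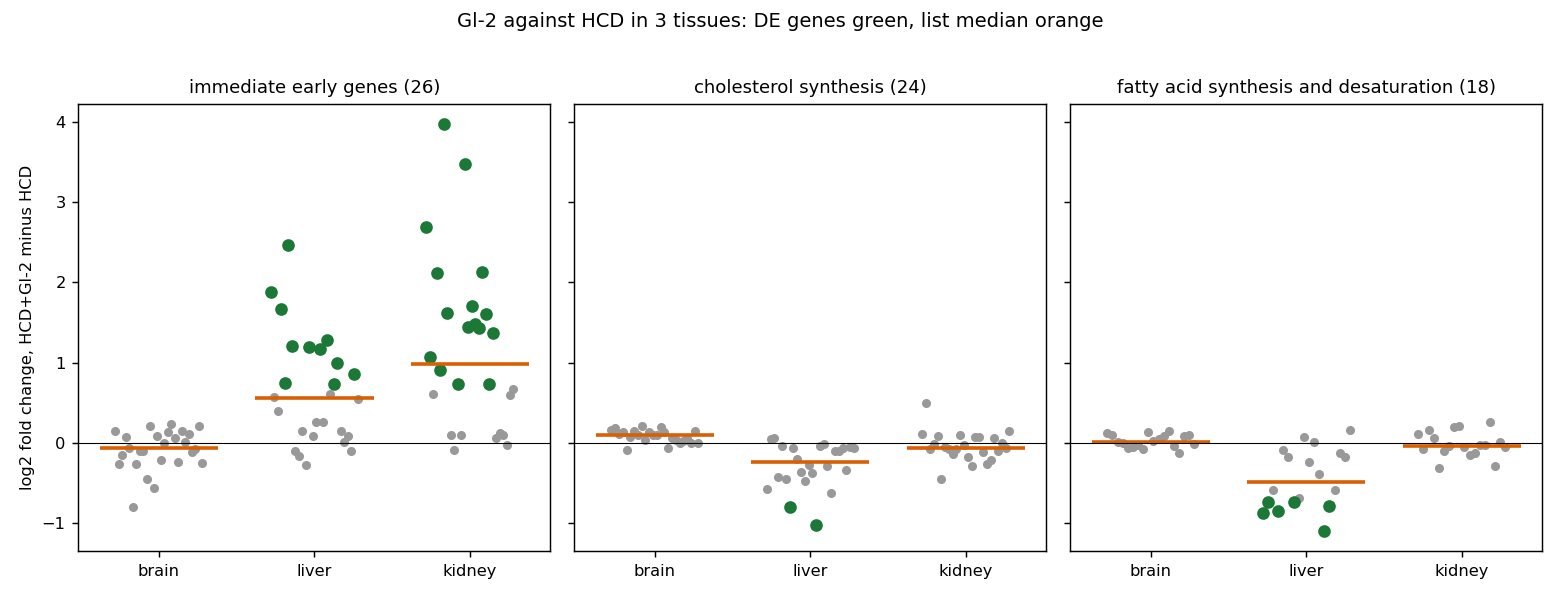
Log2 fold change of HCD+Gl-2 minus HCD (y axis) in brain, liver and kidney (x axis) for the members of 3 gene lists, with DE genes in green and an orange bar at the list median. No brain point is green, while 11 immediate early genes in liver and 16 in kidney are, and the fatty acid synthesis median is 0.02 in brain and -0.49 in liver.

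Against Control, HCD+Gl-2 had 41 DE genes in brain (0.186%), 8 higher (0.0362%) and 33 lower (0.149%). Higher were the peptide genes Nts (neurotensin, 0.84) and Avp (vasopressin, 0.74), the orphan receptor gene Gpr165 (0.76), the glycine receptor subunit Glra3 (0.75) and A230006K03Rik (0.81). Avp read 7.96, 7.97 and 7.84 with Gl-2, 7.44, 7.76 and 7.20 on HCD and 7.01, 7.15 and 7.39 on Control. The lower genes were led by Arhgef33 (-1.53), Mela (-1.51), Ptpn22 (-1.28), Il16 (-1.21) and Exph5 (-1.04), each of which read over 1 log2 unit lower in Control array C than in Control arrays A and B. This is the order of the cerebellum list, which was at 6.64 in Control array C and at 9.49 and 10.01 in the others. The count was 4 with the 15 brain arrays only and 3 with the pool letter as a replicate block. It was 11 without HCD+Gl-2 array C, 8 and 15 without Control arrays A and B, and 270 without Control array C, so most of these calls depended on the arrays used.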

How the data were processed

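RNA was hybridised to Affymetrix Mouse Gene ST v1.0 arrays, 3 per group and tissue for 15 groups (45 arrays). By the study's methods the authors summarised probes by RMA, quantile normalised with oligo, reduced batch effects with ComBat (the batches are not named in the sources used here) and kept 1 probe set per gene, the one with the highest interquartile range. The deposited values are log2 expression values of 22080 genes. The genome build is not given in the sources used here. Adjustment for batches by the authors can shift levels between arrays and make the spread within groups smaller, and the number of arrays limits the precision.

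Groups came from the sample labels. The values were used as deposited in limma 3.58.1 (R 4.3.3) with 1 mean for each of the 15 groups and empirical Bayes moderation (residual degrees of freedom 30, prior 7.34), with Benjamini-Hochberg adjustment over 22080 genes. DE required a change beyond 0.7 on the log2 scale and an adjusted p no larger than 0.05. Tissue differences were contrasts of the same fit, and the fit was tested on simulated data. Named were the DE genes and, up to 10 per direction, the genes with the lowest p whose groups did not overlap, up to 5 called genes per direction in the other contrasts, and members of 42 gene lists (23 of cell types and regions, 19 of pathways), with 605 of 612 list genes measured. The genes and lists were chosen with earlier results of these data known. The 13 genes whose names the table had turned into dates are not named. Alternatives were other sets of arrays, leaving out pool C throughout, a block for pool letter, a repeated quantile normalization, trend and robust moderation, a filter on low levels, the adjusted p alone and leaving out each array. Figures used matplotlib 3.10.9.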

Additional observations from a re-analysis of the deposited data

Results flagged for a closer look

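The results here are those where the Gl-2 effect, HCD+Gl-2 minus HCD, differed between brain and another tissue by a test of the difference itself in the same limma fit. Groups of 3 arrays were not tested for single outlying arrays. For brain minus liver 61 genes were called, and 23 with the 30 arrays of those tissues alone. Lower in brain relative to liver were Cdhr1 (-1.03), Doc2g (-0.89), S100a5 (-0.98), Stoml3 (-0.70), Egr1 (-3.26), Mt2 (-2.09), Nr4a1 (-1.75), Mt1 (-1.48) and Egr2 (-1.47). Higher were Cyp2b9 (3.16), Me1 (1.24), Nsdhl (1.21), Tubb2a (1.11) and Hamp2 (1.07). For brain minus kidney 72 genes were called. Lower in brain relative to kidney were Cdhr1 (-0.94), Doc2g (-0.88), S100a5 (-1.08), Egr1 (-4.77), Nr4a1 (-4.02), Fos (-2.54), Plk3 (-2.51) and Cyr61 (-2.42). Higher were Gm20815 (1.41), Gm21943 (1.39), Gm28683 (1.38), Gm20877 (1.32) and Srsy (1.28), none of them DE in brain. In Cdhr1, Doc2g and S100a5 the brain value was the larger of each pair, while in Egr1 the liver and kidney values were, and in Mt2 the liver value was.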

How the results depend on the processing

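None of the genes named for HCD+Gl-2 against HCD turned its direction under the alternatives run. Their groups did not overlap, so leaving out arrays could not turn it. The other settings, apart from the repeated quantile normalization, left the fold change itself the same. The kept directions are therefore not a check of these genes. Medians of several lists close to 0 changed sign, such as choroid plexus (-0.05 to 0.05) and synaptic proteins (-0.06 to 0.01) without HCD+Gl-2 array C. That of immediate early genes did so (-0.07 to 0.04) without HCD+Gl-2 array B. The 5 lower genes of HCD+Gl-2 against HCD became 1 with the 15 brain arrays only (S100a5), 1 with the pool letter as a replicate block, 1 among genes at or above the median level (Doc2g) and 3 to 5 when 1 array was left out, with 3 without HCD+Gl-2 array C or HCD array A. The filter at the median level removed S100a5, Cdhr1 and Stoml3, so these were not tested there. Gh was tested and had an adjusted p of 0.055 in limma. The 0 higher genes became 13 with pools A and B only, 2 at the adjusted p alone and 0 to 5 when 1 array was left out, with 5 without HCD+Gl-2 array C and 2 without HCD array B. The 2 genes of HCD+Gl-2 against HCD+Gl-1 became 1 without HCD+Gl-2 array A. The 41 genes of HCD+Gl-2 against Control became 4 with the brain arrays only, 3 with the replicate block and 8 to 270 when 1 array was left out, with 11 without HCD+Gl-2 array C, 8 and 15 without Control arrays A and B and 270 without Control array C. The 61 genes of brain minus liver became 23 with the 30 arrays of those tissues. Apart from the genes removed by that filter, why the counts moved was not tested. Deviations of arrays with the same pool letter correlated at -0.06, -0.10 and -0.05, so the letters did not pair the arrays. For named genes and lists, 504 alternative values kept their side of the threshold or moved by less than the spread between arrays, 13 moved further, 5 passed the threshold anew and 18 lost it. The list counts without HCD+Gl-2 array C were chosen after seeing the data. The Gh call, kept in 4 of 13 alternatives, was the least stable of the 5, and 3 arrays from 2 separate pools limit the precision of every value.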
